A study of Glycine max with 6 samples.

Results

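Chitinases and chitin-binding proteins were examined in leaves of HN95, a cultivar of soybean (Glycine max), kept under saline-alkaline stress. Genes were taken when the deposited annotation gave them the Gene Ontology (GO) term chitinase activity or chitin binding, and genes with a protein kinase term were to be removed. The terms were held by 39 genes of the 45967 in the table, and 0 of them carried a kinase term. Keeping genes with at least 60 counts summed over the 6 libraries left 28 members. The least counted member was GLYMA_18G120800 with 108 counts, and the nearest gene outside was GLYMA_18G120200 with 41. The other 10 genes left out held 1 to 40 counts in all.

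The treated plants had their leaves sprayed with mesoporous silica nanoparticles (MSN), which are porous particles of silicon dioxide, and gave 3 libraries. The control plants gave 3 libraries, and the sources used here do not say whether they received a mock spray. Both groups were wild type by the labels and were stressed through the soil with a solution of sodium chloride and sodium carbonate at 40 mM each and of sodium bicarbonate and sodium sulfate at 320 mM each. Leaves were taken 7 days after the spray. The protocol names 20 mg/L of MSN, while the treatment tags of the MSN libraries read 20, 21 and 22 mg/L, and the 3 libraries form 1 group here since their titles give 1 treatment. The titles call the 3 libraries of each group biological replicates. The number of plants or pots behind a library is not given, so how far the libraries are independent is not known. The p-values speak only to how far these libraries scatter.

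Chitin is the main structural polysaccharide of fungal cell walls and of insect cuticle, and plants do not make it. Plant chitinases cut chitin chains, and many of them are pathogenesis-related proteins that accumulate in leaves after infection, wounding or treatment with ethylene or jasmonate. They belong to several classes from unrelated glycoside hydrolase families, and some carry a separate chitin-binding domain. Other members of the families are present without infection.

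The deposited annotation split the members in a way that the selection did not use. The term defense response was held by 14 members and the term extracellular region by the other 14, with no gene in both sets. Most members with the defense response term were also annotated to the breakdown of cell wall macromolecules (12 of 14). Both selecting terms were held by 18 members, chitinase activity alone by 9 and chitin binding alone by 1, GLYMA_03G256800, which is also annotated to oligosaccharide binding. The split by second term was made after the annotation was seen. Every member is described in the table only as a hypothetical protein, so glycoside hydrolase families and chitinase classes are not named here, and identifiers and coordinates are those of the table.

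Library totals ran from 63981150 to 67923813 counts. The 211 genes of photosystems, light harvesting and chlorophyll binding summed to 31612 to 32900 CPM (counts scaled to library size) in MSN libraries. In control libraries they summed to 21232 to 22196 CPM. No other tissue was compared, so the leaf identity of the samples rests on their titles. Ribosomal RNA made up 0.0934 to 0.126% of counts except in control replicate 2, where it made up 0.223%. In bulk leaf RNA, fewer cells of a type and less RNA per cell cannot be told apart.

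The members went in both directions. In MSN leaves 11 of 28 members were lower and 7 were higher, and 10 did not pass (edgeR quasi-likelihood test, adjusted p threshold 0.05). That is 39.3% lower and 25.0% higher. Over all 39203 genes tested, 29.7% were lower and 29.6% were higher, 59.3% in all, so being called was not unusual. Changes of at least 1 on the log2 scale were counted apart: 7 members (25.0%) fell and 6 (21.4%) rose by that much, where the shares over all genes were 7.01% and 9.27%. Members had a median absolute log2 fold change of 0.77, against 0.39 for all genes tested, and median signed values of 0.06 and 0.01. In scaled counts, all MSN libraries lay below all control libraries in 10 members and above them in 8, and the groups overlapped in the other 10. Over all genes tested, the groups lay apart in 65.0%, with MSN below in 32.2% and above in 32.8%.

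**Figure D1:**
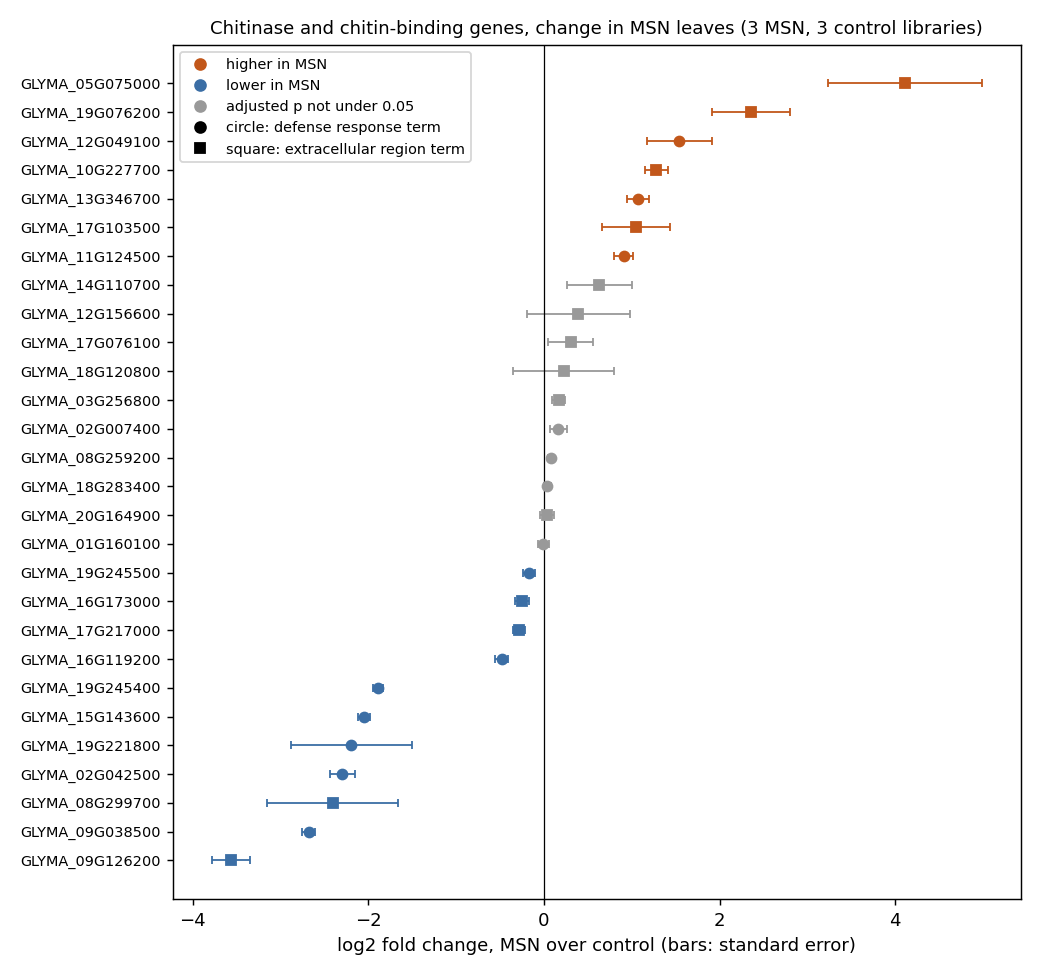
The log2 fold change of each of the 28 members, MSN over control, with its standard error. Circles are members with the defense response term and squares are members with the extracellular region term; 7 members stand higher, 11 stand lower and 10 did not pass the test.

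No member of at least 10 FPKM was called higher in the edgeR test as reported, though GLYMA_08G259200, GLYMA_18G283400 and GLYMA_03G256800 were under some other settings. Levels between genes were compared as FPKM, the authors' value per length of gene and library total. Of the 12 members with a mean of at least 10 FPKM, 7 fell in MSN, 0 rose and 5 missed the threshold. Among all tested genes at that level, 32.8% were higher and 43.5% were lower. Of the 6 members between 1 and 10 FPKM, 3 were higher and 2 were lower, against 30.1% and 29.0% of genes at that level. Of the 10 members under 1 FPKM, 4 were higher and 2 were lower, against 24.2% and 13.5%. The median absolute log2 fold change, 0.77 over all members, was uneven by level. It was 0.21 at 10 FPKM or more, 1.18 between 1 and 10 FPKM and 1.29 under 1 FPKM. The same medians for all genes at these levels are not given here. The replicate spread was wider for these scarce members: their median coefficient of variation was 35.6% in MSN and 33.9% in control, where members of at least 10 FPKM had 5.98% and 6.41%.

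**Figure D2:**
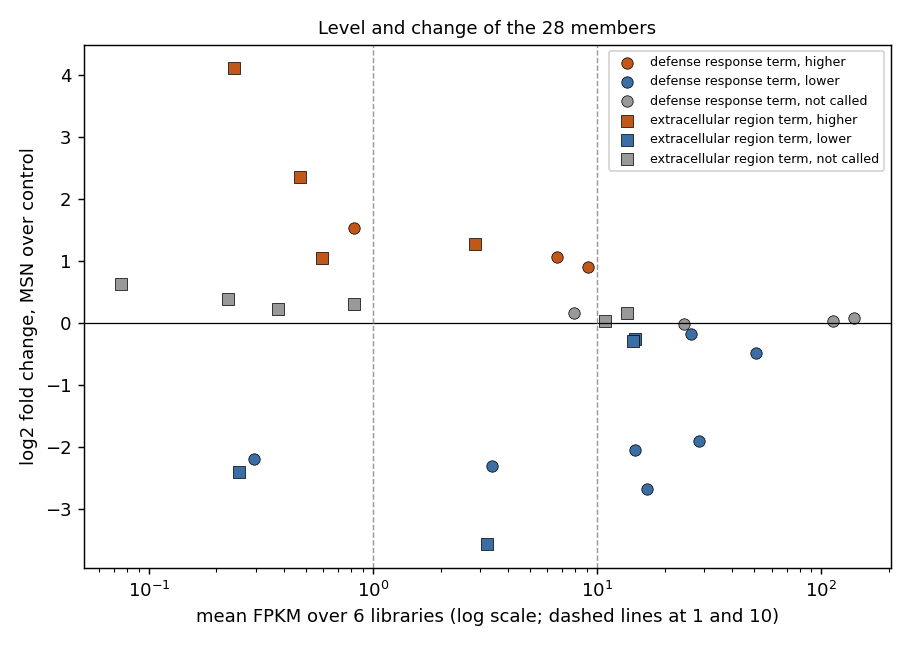
Mean FPKM over the 6 libraries (log axis) against the log2 fold change, MSN over control, 1 point per member. Right of the dashed line at 10 FPKM no member is called higher in the test as reported and 7 are called lower.

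The most abundant chitinase genes hardly moved. GLYMA_08G259200 (chromosome 8, 23405214 to 23408510), annotated to chitin breakdown and defense response, had 143, 141 and 147 FPKM in MSN libraries, against 138, 132 and 137 FPKM in control libraries. Its MSN values lay above its control values, but the log2 fold change of 0.08 (SE 0.04) did not pass (adjusted p = 0.0745). It did pass under 4 of the 15 other settings tried, at up to 0.15. GLYMA_18G283400 (chromosome 18, 56423007 to 56426460), with the same terms, had 119, 110.3 and 115 FPKM in MSN libraries and 115, 111 and 109 FPKM in control libraries, and the groups overlapped (0.04, SE 0.04, adjusted p = 0.403). It passed under quantile normalisation alone (0.14, adjusted p = 0.00157 in limma). The ratio between these genes, GLYMA_08G259200 over GLYMA_18G283400, was 0.32 ± 0.06 on the log2 scale in MSN and 0.28 ± 0.04 in control (SD, n = 3; difference 0.04, SE 0.04; 2-sided exact permutation test p = 0.4).

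**Figure D3:**
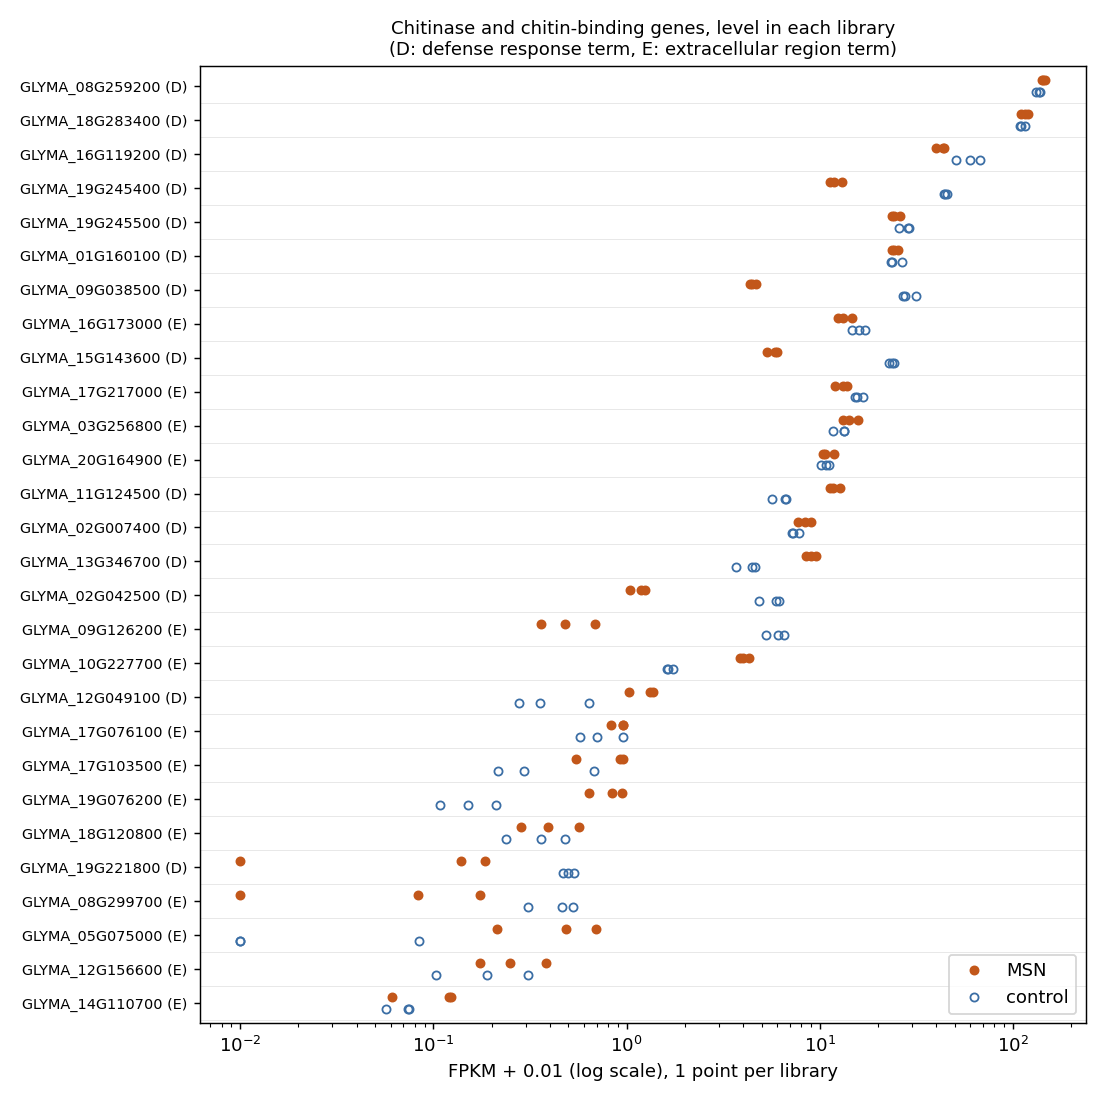
FPKM of each member in each library on a log axis, after adding 0.01 so that values of 0 can be drawn; filled points are MSN and open points control. Members are ordered by mean level, from GLYMA_08G259200 at 140 FPKM to GLYMA_14G110700 at 0.0749 FPKM.

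Of the 14 members with the defense response term, 7 were lower (50.0%), 3 were higher (21.4%) and 4 did not pass, beside 29.7% lower and 29.6% higher over all genes tested. Falls of at least 1 on the log2 scale were found in 5 of the 14 and rises of that size in 2, beside 7.01% and 9.27% over all genes. No test set this group against the other members. GLYMA_09G038500 (chromosome 9, 3219576 to 3221832) had 4.44, 4.35 and 4.67 FPKM in MSN libraries, against 31.5, 27.7 and 27.0 FPKM in control libraries. Every MSN library was far below every control library (log2 fold change -2.68, SE 0.07, adjusted p = 1.02e-15). GLYMA_15G143600 (chromosome 15, 11790380 to 11793024), with the same terms, had 5.86, 5.30 and 5.97 FPKM in MSN and 24.3, 23.7 and 22.9 FPKM in control (-2.05, SE 0.07, adjusted p = 8.15e-15).

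GLYMA_09G038500 and GLYMA_15G143600 did not fall to the same degree. The log2 ratio of GLYMA_09G038500 over GLYMA_15G143600 was -0.40, -0.28 and -0.35 in MSN libraries, against 0.38, 0.22 and 0.24 in control libraries. The order of the genes thus differed between the groups, with a difference of -0.62 (SE 0.06; 2-sided exact permutation test p = 0.1, the smallest that 3 libraries against 3 allow). Ratios were compared for 8 pairs of members in all, and all were chosen with the values known, so their p-values are descriptive. Adjusted over the 8 pairs, p was 0.133 for the 6 pairs whose groups did not overlap and 0.4 for the other 2.

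The KEGG orthology K01183 held 10 members, of which 5 rose, 2 fell and 3 did not pass (median log2 fold change 0.72). All 5 of these rises were of at least 1 on the log2 scale. Of the 15 members without an orthology, 2 rose and 7 fell, beside 29.6% higher and 29.7% lower over all genes tested. Members assigned to the KEGG orthology K20547, basic endochitinase B, which the table places in the plant MAPK signalling pathway, differed in response. Of these 3 genes, which are also annotated to defense against fungi, 2 fell and 1 did not pass. GLYMA_02G042500 (chromosome 2, 3995112 to 3997537) had 1.17, 1.23 and 1.04 FPKM in MSN libraries, against 6.15, 5.90 and 4.85 FPKM in control libraries, which is a fall with no overlap (-2.30, SE 0.15, adjusted p = 1.31e-10). GLYMA_16G119200 (chromosome 16, 26625538 to 26627151), the third most abundant member, had 43.9, 40.2 and 43.5 FPKM in MSN and 67.5, 50.5 and 59.8 FPKM in control (-0.48, SE 0.08, adjusted p = 2.30e-05). GLYMA_01G160100 (chromosome 1, 49869398 to 49871874) had 24.4, 25.4 and 23.7 FPKM in MSN and 26.6, 23.4 and 23.7 FPKM in control, and did not pass (-0.01, SE 0.06, adjusted p = 0.926). Its sign turned positive under 4 other settings. The log2 ratio of GLYMA_02G042500 over GLYMA_01G160100 averaged -4.42 ± 0.08 in MSN and -2.13 ± 0.15 in control (SD, n = 3; difference -2.29, SE 0.10; exact permutation p = 0.1, the smallest possible). GLYMA_02G042500 over GLYMA_16G119200 gave -5.22 ± 0.18 in MSN and -3.39 ± 0.27 in control, and GLYMA_16G119200 over GLYMA_01G160100 gave 0.80 ± 0.12 in MSN and 1.26 ± 0.13 in control (SD, n = 3; exact permutation p = 0.1 for both).

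Both members annotated with ribonuclease activity as well as chitin binding lie side by side on chromosome 19 and responded unequally. They are the members annotated to defense against both bacteria and fungi. GLYMA_19G245400 (49238744 to 49239912) had 13.04, 11.8 and 11.3 FPKM in MSN libraries, against 44.2, 45.6 and 44.3 FPKM in control libraries, with no overlap (-1.89, SE 0.06, adjusted p = 4.45e-15). GLYMA_19G245500 starts 1.371 kb after it ends (49241284 to 49242718) and had 23.7, 24.3 and 26.0 FPKM in MSN and 28.7, 25.6 and 28.8 FPKM in control. The groups overlapped, and the log2 fold change of -0.17 (SE 0.06, adjusted p = 0.0313) lost its call under 7 of the 15 other settings. GLYMA_19G245400 was thus the higher gene of the pair in control leaves and the lower one in MSN leaves. The log2 ratio of GLYMA_19G245400 over GLYMA_19G245500 was -0.86, -1.04 and -1.20 in MSN libraries, against 0.62, 0.83 and 0.62 in control libraries (difference -1.73, SE 0.12; exact permutation p = 0.1). The sources used here do not say how reads shared between close copies were counted, which limits any comparison of neighbouring or similar members.

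**Figure D4:**
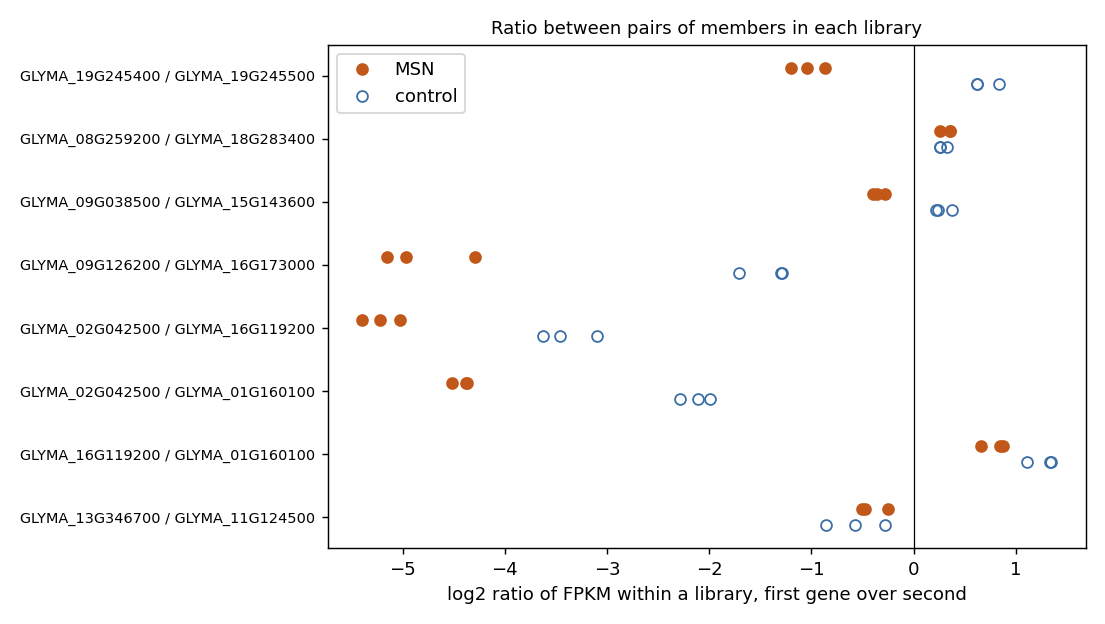
The log2 ratio of FPKM between 8 pairs of members within each library; filled points are MSN and open points control. In 6 pairs the groups do not overlap, and in GLYMA_19G245400 over GLYMA_19G245500 and GLYMA_09G038500 over GLYMA_15G143600 the ratio is below 0 in all 3 MSN libraries and above 0 in all 3 control libraries.

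The remaining member of this set that fell was scarce. GLYMA_19G221800 (chromosome 19, 47376659 to 47378397) had 0, 16 and 11 counts in MSN libraries, against 41, 46 and 39 counts in control libraries (-2.19, SE 0.69, adjusted p = 0.0105). With the counts divided, as described below, this gene had no fitted value and so no call. Genes annotated to leaf senescence or wounding had 33 of 53 tested lower and 10 higher, beside 29.7% and 29.6% over all genes tested. Their summed level was 2601 to 2647 CPM in MSN and 4573 to 4754 CPM in control. The leaf mesophyll list and the phloem and vein list, given below, went the other way, with more genes higher than lower. The part of senescence or wounding in the chitinase falls was not tested.

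The defense response members also held 3 rises. GLYMA_13G346700 (chromosome 13, 43705650 to 43706839), a chitinase annotated to polysaccharide breakdown, had 8.46, 8.95 and 9.51 FPKM in MSN libraries, against 3.68, 4.63 and 4.46 FPKM in control libraries (1.07, SE 0.12, adjusted p = 4.21e-07). GLYMA_11G124500 (chromosome 11, 9466533 to 9468193) had 11.7, 12.7 and 11.3 FPKM in MSN and 6.68, 5.63 and 6.64 FPKM in control (0.91, SE 0.11, adjusted p = 8.16e-07). All MSN values of both genes lay above all their control values. The log2 ratio between them averaged -0.41 ± 0.14 in MSN and -0.57 ± 0.29 in control, with overlapping groups (SD, n = 3; difference 0.16, SE 0.18; exact permutation p = 0.4). GLYMA_12G049100 (chromosome 12, 3528884 to 3530440) had 81, 88 and 63 counts in MSN and 40, 18 and 22 counts in control (1.54, SE 0.37, adjusted p = 0.00158). Its neighbour GLYMA_12G049200, 2.726 kb away and also annotated as a chitinase, held 16 counts over all libraries and was left out by the count minimum. The remaining member of the set, GLYMA_02G007400, had 8.34, 8.96 and 7.71 FPKM in MSN and 7.20, 7.78 and 7.28 FPKM in control and did not pass (0.16, SE 0.10, adjusted p = 0.162). Its groups overlapped in FPKM, with MSN replicate 3 just under control replicate 2, though not in scaled counts.

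Of the 14 members annotated to the extracellular region, 4 rose, 4 fell (28.6% each) and 6 did not pass, which is near the shares over all genes tested of 29.6% higher and 29.7% lower. None of them exceeded a mean of 14.7 FPKM. The deepest fall of all members was here. GLYMA_09G126200 (chromosome 9, 31094159 to 31095607), annotated to chitinase activity alone, had 0.349, 0.470 and 0.676 FPKM in MSN libraries, against 6.49, 5.27 and 6.04 FPKM in control libraries (-3.57, SE 0.22, adjusted p = 7.30e-11). In counts this was 22, 31 and 42 in MSN and 411, 347 and 388 in control, so MSN leaves kept a small fraction of the control level in every library. GLYMA_08G299700 (chromosome 8, 41782688 to 41783728) had 6, 0 and 12 counts in MSN and 35, 24 and 40 counts in control (-2.41, SE 0.74, adjusted p = 0.00950). It heads a cluster with GLYMA_08G299800 and GLYMA_08G300300, which held 9 and 1 counts in all. With the counts divided, as described below, GLYMA_08G299700 had no fitted value and so no call.

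The other falls in the extracellular region set were shallow. GLYMA_17G217000 (chromosome 17, 36553695 to 36556013) had 13.8, 13.3 and 11.997 FPKM in MSN and 16.8, 15.2 and 15.5 FPKM in control (-0.29, SE 0.07, adjusted p = 0.00123). GLYMA_16G173000 (chromosome 16, 33365497 to 33367017) had 12.4, 14.7 and 13.2 FPKM in MSN and 15.9, 17.2 and 14.7 FPKM in control (-0.25, SE 0.08, adjusted p = 0.00982), with MSN replicate 2 just under control replicate 3. Leaving out MSN replicate 1 or control replicate 2 ended that call, with log2 fold changes of -0.20 in both cases and adjusted p of 0.0550 and 0.0546.

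Of the 4 rises in this set, 3 were in members under 1 FPKM. GLYMA_10G227700 (chromosome 10, 45817689 to 45819155), the most abundant of them, had 3.87, 3.99 and 4.29 FPKM in MSN libraries, against 1.64, 1.73 and 1.61 FPKM in control libraries (1.28, SE 0.14, adjusted p = 1.82e-07). GLYMA_19G076200 (chromosome 19, 27493941 to 27495362) had 48, 66 and 70 counts in MSN and 8, 12 and 16 counts in control (2.36, SE 0.44, adjusted p = 0.000165). GLYMA_05G075000 (chromosome 5, 9133989 to 9135599) had 62, 20 and 43 counts in MSN and 0, 0 and 7 counts in control. Its ratio of counts per library total was 18.1, with an exact binomial 95% interval of 4.00 to 135 when 1 counting event is taken as 4 counts, and it passed the test (log2 fold change 4.11, SE 0.88, adjusted p = 0.000547). Without control replicate 3, the control library with counts, the fitted value was 8.40. With the counts divided, as described below, GLYMA_05G075000 had no fitted value and so no call. GLYMA_17G103500 had 57, 105 and 95 counts in MSN and 71, 32 and 22 counts in control. Its groups overlapped, and the call (1.05, SE 0.39, adjusted p = 0.0281) was lost when MSN replicate 2 or 3 or control replicate 2 or 3 was left out, with adjusted p from 0.0865 to 0.12, and also with no filter on low counts.

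The extracellular region members that did not pass ranged from abundant to barely counted. GLYMA_20G164900 had 11.9, 10.6 and 10.4 FPKM in MSN and 11.1, 10.1 and 10.8 FPKM in control (0.03, SE 0.08, adjusted p = 0.736). The chitin-binding gene without a chitinase term, GLYMA_03G256800, had 13.2, 15.8 and 14.2 FPKM in MSN and 11.8, 13.3 and 13.4 FPKM in control (0.17, SE 0.07, adjusted p = 0.0652), and it passed under 5 of the 15 other settings. The other 4, GLYMA_14G110700, GLYMA_12G156600, GLYMA_17G076100 and GLYMA_18G120800, were all under 1 FPKM, with log2 fold changes of 0.63, 0.39, 0.30 and 0.22. Their groups overlapped, with 9 to 105 counts per library. GLYMA_14G110700 passed without MSN replicate 2 (0.91, adjusted p = 0.0380).

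Of the 28 members, 3 lie beside a gene for pyruvate kinase, the enzyme of the last step of glycolysis. This annotation was picked out after the values were seen. No member overlaps another annotated gene on either strand. The table annotates 28 genes with pyruvate kinase activity, and 3 of them are the immediate neighbour of a member. GLYMA_09G126300, 20.508 kb from GLYMA_09G126200, had 10.6, 10.6 and 9.91 FPKM in MSN and 42.2, 39.9 and 41.4 FPKM in control (-1.99, SE 0.05, adjusted p = 1.36e-16). Here chitinase and neighbour both fell steeply. GLYMA_16G173100, 1.61 kb from GLYMA_16G173000, had 3.76, 3.37 and 3.60 FPKM in MSN and 19.6, 19.7 and 20.4 FPKM in control (-2.48, SE 0.06, adjusted p = 5.51e-17), while the chitinase beside it fell by only 0.25. GLYMA_10G227800, 2.263 kb from GLYMA_10G227700, had 24.5, 24.5 and 24.6 FPKM in MSN and 28.9, 27.1 and 26.3 FPKM in control (-0.17, SE 0.05, adjusted p = 0.00447), while the chitinase beside it rose by 1.28. In all 3 places the chitinase is on the plus strand and the pyruvate kinase on the minus strand. Of all 54 flanking genes that are no members, 19 were lower, 10 were higher, 16 did not pass and 9 were not tested, beside 29.7% lower and 29.6% higher over all genes tested. Among the 13 flanking genes of the members that fell by at least 1, 7 were lower, 1 was higher, 3 did not pass and 2 were not tested. Among the 12 flanking genes of the members that rose by at least 1, 3 were lower, 4 were higher, 3 did not pass and 2 were not tested. The difference between these sets was not tested.

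Taken as a sum, chitinase transcripts were lower in MSN leaves. The summed level of the 28 members was 468, 458 and 467 FPKM in MSN libraries, against 567, 529 and 541 FPKM in control libraries. All MSN libraries lay below all control libraries, and the means were 465 ± 5.28 FPKM in MSN and 546 ± 19.3 FPKM in control (SD, n = 3), which is 14.9% less; no test is given for a sum over chosen genes. The members took 0.0700 to 0.0717% of all counts in MSN and 0.0802 to 0.0851% in control. GLYMA_08G259200 and GLYMA_18G283400 together made up 55.7 ± 0.743% of the sum in MSN and 45.4 ± 0.664% in control (SD, n = 3). Without both, the other 26 members summed to 206 ± 1.23 FPKM in MSN and 298 ± 14.2 FPKM in control. The 7 members that fell by at least 1 summed to 24.1 ± 0.798 FPKM in MSN and 109.6 ± 3.76 FPKM in control, while the 6 that rose by at least 1 summed to 16.3 ± 0.831 FPKM in MSN and 6.89 ± 0.166 FPKM in control. Both of these sets were picked by their change in the same libraries, so the direction of their sums was fixed by that choice. By second term, the defense response members summed to 404 ± 7.11 FPKM in MSN and 481 ± 18.5 FPKM in control, and the extracellular region members to 60.2 ± 1.90 FPKM in MSN and 65.2 ± 0.916 FPKM in control.

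**Figure D5:**
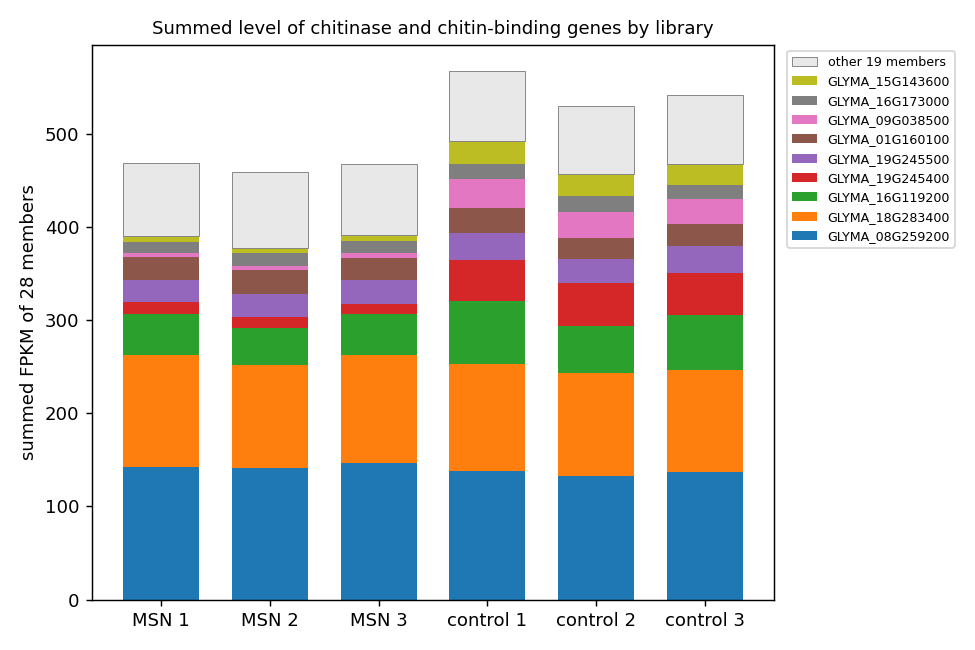
Summed FPKM of the 28 members in each library, stacked by member for the 9 most abundant, with the other 19 in pale grey at the top. The MSN bars reach 458 to 468 FPKM and the control bars 529 to 567 FPKM; the lowest pair of segments, GLYMA_08G259200 and GLYMA_18G283400, differs little between groups.

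Genes around the chitinases in function were counted in the same fit, as lists by annotation term. The shares over all genes tested were 29.6% higher and 29.7% lower. Beta-1,3-glucanases cut the glucan of fungal walls and of plant callose and often act beside chitinases. Of their 70 tested genes, 29 were higher and 21 lower (median log2 fold change 0.28). Their summed level was nevertheless lower in MSN, at 893 to 899 CPM against 969 to 1039 CPM in control. They also went both ways among abundant genes: GLYMA_03G132700 had 92.3 FPKM in MSN and 69.8 FPKM in control (log2 fold change 0.40, SE 0.04), and GLYMA_18G291500 had 50.5 FPKM in MSN and 97.1 FPKM in control (-0.95, SE 0.04). Genes annotated to the response to chitin had 8 of 28 higher and 8 lower (median 0.08). Its most abundant called genes were both lower: GLYMA_14G016300 had 65.6 FPKM in MSN and 72.0 FPKM in control, and GLYMA_12G073000 had 33.0 FPKM in MSN and 47.4 FPKM in control.

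Without the members, defense response to fungus had 10 of 53 genes higher and 19 lower (median -0.06), and 4 of the 5 members with that term were lower and 0 were higher. Defense response to bacterium without the members had 29 of 106 higher and 35 lower (median -0.05). Polysaccharide catabolism without the members had 14 of 48 higher and 21 lower (median -0.12), and KEGG amino sugar and nucleotide sugar metabolism, had 57 of 170 higher and 69 lower (median -0.08). Among hormone response terms, ethylene had 5 of 37 higher and 16 lower (median -0.16), jasmonic acid 4 of 9 higher and 3 lower (median 0.21), and salicylic acid 4 of 8 higher and 4 lower (median -0.07). Systemic acquired resistance had 4 of 11 higher and 3 lower (median 0.11). These counts are set against 29.6% higher and 29.7% lower over all genes tested, with a median of 0.01. The most abundant called genes of the jasmonic acid list went opposite ways: GLYMA_14G223200 had 59.6 FPKM in MSN and 186 FPKM in control, and GLYMA_17G144100 had 34.6 FPKM in MSN and 28.1 FPKM in control. No gene carried the lysozyme activity term, and the lists for chitin catabolism and for breakdown of cell wall macromolecules held no tested gene outside the members.

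Genes matched by words of their annotation, taken as markers of other cell types, were counted beside the members. Over all genes tested, 29.6% were higher and 29.7% were lower. Phloem and vein genes had 21 of 41 higher and 3 lower, with a summed level of 342 to 366 CPM in MSN and 285 to 290 CPM in control. Guard cell and epidermis genes had 27 of 80 higher and 20 lower, with 5311 to 5431 CPM in MSN and 2833 to 2884 CPM in control. Root and nodule genes had 4 of 14 higher and 4 lower, with 342 to 346 CPM in MSN and 325 to 329 CPM in control. Seed genes had 14 of 48 higher and 12 lower, with 2849 to 2977 CPM in MSN and 1609 to 1672 CPM in control. Pollen genes had 8 of 24 higher and 8 lower, with 745 to 779 CPM in MSN and 798 to 822 CPM in control. In the order given, the median log2 fold changes of these lists were 0.80, 0.13, -0.01, 0.11 and -0.13. The sums of the guard cell and epidermis list and of the seed list thus do not stand for most of their genes. The seed and pollen lists thus summed higher in these leaf libraries than the phloem and vein list, so they do not mark those tissues alone. No gene of these lists was at 0 in all 6 libraries. The same held for all 45967 deposited genes, so it says nothing about the lists. The leaf mesophyll list had 161 of 197 higher and 8 lower. The part of these lists in the chitinase results was not tested.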

How the data were processed

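Polyadenylated RNA was sequenced from 6 leaf libraries, and per the file headers, each gene has a count column and an FPKM column per library. The deposited counts are whole numbers, but given the excess of the value 4 described below, they may not be 1 count per read. By their unit, the deposited FPKM values are scaled for gene length and depth. The submitters' processing notes list DESeq2 1.34.0 and R 4.1.2 without a role. The sources used here name no aligner, counter, strand setting, genome build or annotation. Groups and replicate numbers came from the titles. The test was edgeR 4.0.16 under R 4.3.3 (glmQLFit and glmQLFTest after filterByExpr, with TMM factors). The 2-sided p-values were adjusted by Benjamini-Hochberg over all 39203 genes and read at 0.05; all 28 members passed the filter. Standard errors were derived from the F statistic. The common biological coefficient of variation was 0.0867.

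Among counts of 1 to 12, the value 4 took 17.7 to 19.0% and the value 5 took 8.17 to 9.15% per library, so a single counting event may stand for 4 counts; this assumption was tried as an alternative, and intervals cover counting error only. No library pair was identical, and within groups, library pairs scattered 2.33 to 2.78 times as much as Poisson counts would. Alternatives were RLE, upper quartile and quantile scaling, DESeq2 1.42.0, no filter, limma 3.58.1 on log2(FPKM + 1) and log2(FPKM + 0.1), counts divided by 4, the replicate block and each library left out. Named genes were the 8 most abundant members, up to 8 rises and 8 falls, by size, among members that passed with non-overlapping groups (6 rises qualified), members within 100 kb of each other and the 3 abundant members with the smallest change; other members named were chosen after their values were seen. Genes named from the lists were the most abundant called ones. The members and lists were chosen with earlier results of these data known. No sequences were used here.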

Additional observations from a re-analysis of the deposited data

How the results depend on the processing

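The counts of 7 members higher and 11 lower stayed within 1.5 times under all 15 alternatives, at 6 to 10 higher and 9 to 11 lower, and the counts over all genes did too. With the replicate block 8 members were higher and 11 lower; deviations of same-numbered libraries correlated at -0.003 to 0.010, so the numbers do not pair the libraries. The difference in summed level, -13.8% in MSN in scaled CPM, ran from -15.3 to -12.01% with 1 library left out; the value of -21.0% without the most abundant member follows from removing a gene that hardly changed. Of 415 recomputed member fold changes, 381 kept direction and call, 14 lost the call, 11 gained it and 9 changed sign, all 9 in members that had not passed. With the counts divided, GLYMA_05G075000, GLYMA_08G299700, GLYMA_19G221800, GLYMA_12G156600 and GLYMA_18G120800 had no fitted value, so each has 14 recomputed values, not 15. Of these, GLYMA_05G075000, GLYMA_08G299700 and GLYMA_19G221800 were called as reported. They thus had no call with the counts divided, and this is not counted among the 14 losses. GLYMA_01G160100 turned to 0.037 under upper quartile scaling and 0.042 under quantile normalisation, and ranged from -0.049 to 0.055 with 1 library left out. GLYMA_20G164900 ranged from -0.030 to 0.063 with 1 library left out, and was below 0 without MSN replicate 1 (-0.030) or control replicate 2 (-0.013). GLYMA_18G120800 turned to -0.0055 under quantile normalisation and ranged from -0.059 to 0.48 with 1 library left out. Without the filter, the call of GLYMA_17G103500 was lost (adjusted p = 0.0655). The causes of these shifts were not tested. Folds of members under 1 FPKM rest on few counts: over the alternatives, FPKM with pseudocounts included, GLYMA_05G075000 ranged from 0.49 to 8.40 and GLYMA_08G299700 from -3.47 to -0.40 on the log2 scale.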
